A study of Mus musculus with 2 samples.

Results

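The enzymes of glycolysis, the pentose phosphate pathway and the tricarboxylic acid (TCA) cycle were compared between neutrophils lacking miR-223 and wild-type neutrophils. The 45 genes were chosen by symbol, as the enzymes of these routes with the kinases of pyruvate dehydrogenase and the enzymes that set the level of the phosphofructokinase activator. A gene was measured where the platform annotation named at least 1 probe set for it alone, and it took the probe set with the highest mean log2(intensity + 16). This held for 42 of the 45 genes, among 18193 genes measured in all. Gpi1, Eno1 and G6pdx had no such probe set and were not analysed here.

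Total RNA came from cultures of 2 genotypes, miR-223 knockout and wild type, each measured on 1 Affymetrix 3' array. Both were grown from bone marrow progenitors of male C57BL/6 mice for 6 days with G-CSF, the cytokine of granulocyte production, and stem cell factor (SCF). Both cultures also received cycloheximide, a blocker of translation, at 100 ug/ml in the last 8 min before harvest. The labels do not give the design of the knockout allele or the number of mice behind each array, nor do they call the cells purified. The array set was made to ask how messenger RNA levels of such cultured neutrophils change when miR-223 is missing. With 1 array per genotype no difference has a replicate check, no test was run, and it is the number of arrays that sets the precision.

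MiR-223 is a microRNA of the granulocyte lineage, and microRNAs lower the level or translation of messenger RNAs that pair with their seed. Neutrophils hold few mitochondria and are known to draw most of their ATP from glycolysis, which splits glucose to pyruvate and lactate. Their pentose phosphate pathway supplies NADPH to the oxidase that makes superoxide, and the TCA cycle oxidizes acetyl groups in mitochondria.

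The mature arms of the microRNA that the knockout cells lack are shown first, as RefSeq gives them for GRCm38.p6, with the seed, bases 2 to 8 from the 5′ end, in capitals. The 3p arm lies at chrX:96242884-96242905 and the 5p arm at chrX:96242842-96242864, both on the plus strand, and their seeds differ.
mmu-miR-223-3p: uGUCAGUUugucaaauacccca
mmu-miR-223-5p: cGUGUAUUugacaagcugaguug

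Since 0 of the probe sets used carried the name of the miR-223 gene, the deletion itself could not be checked on these arrays. The defining neutrophil markers were present on both arrays, with 11 of 11 measured ones expressed, among them Mpo, Elane, Ltf and S100a9. A gene was called expressed where its mean reached the median of all probe sets, an intensity of 33.9. Where a gene had several expressed probe sets, their log2 differences varied with an SD of 0.14, pooled over 5017 genes. This SD is a spread within these arrays and not a replicate error. Poly-A spike-in controls had a median difference of -0.17 (24 of 24 probe sets lower in knockout) and hybridization controls of -0.11 (17 of 18). Values below are not adjusted to them except where a shift by the poly-A controls is named.

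Most enzyme genes of central carbon metabolism differed little between the arrays. All 42 measured members were expressed, with intensities of 179 to 14915 in knockout cells and 128 to 13776 in wild-type cells. Every difference below is the log2(intensity + 16) of knockout cells minus that of wild-type cells. The 42 differences ran from -0.299 to 0.57, with a median of 0.01 and an SD of 0.16. In RNA of whole cultures, fewer cells of a type and less RNA per cell cannot be told apart. Over all 11006 expressed genes the median was -0.00037 and the SD 0.18. Of the members, 34 lay within 0.2 of 0, a share of 81.0% against 79.6% of all expressed genes.

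The members were divided almost evenly by sign. In knockout cells 22 were higher and 20 were lower, so 52.4% stood above 0 against 49.7% of all expressed genes. At a difference of 0.3 or more, a ratio of 1.23 for a bright gene, 2 members were higher and 0 were lower. The same rule took 5.23% of all expressed genes as higher and 2.88% as lower. At 0.2 or more, 6 members were higher and 2 lower, beside 12.1% and 8.27% of all expressed genes. These counts are near the shares of all expressed genes, and no p-value can be given for them.

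**Figure D1:**
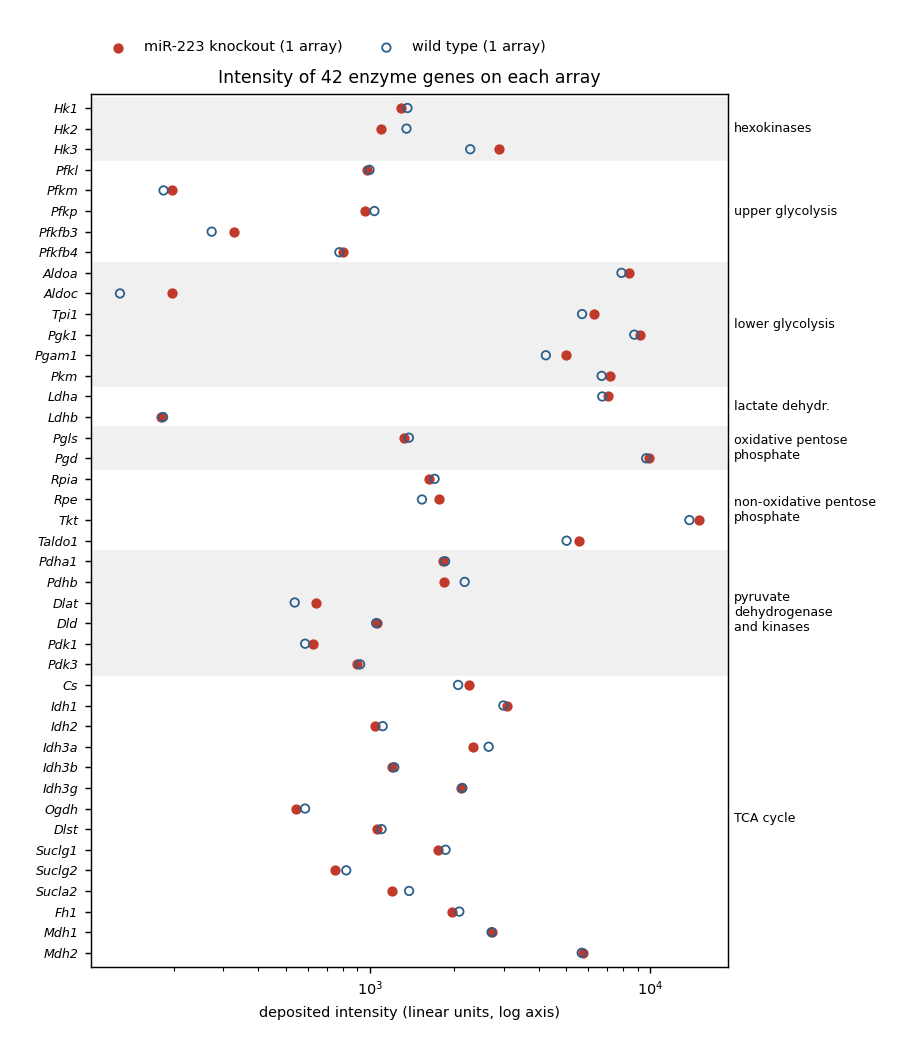
Deposited intensity (log axis) of the 42 measured enzyme genes, by pathway step, with filled circles for the miR-223 knockout array and open circles for the wild-type array. The circles of most genes nearly coincide, and those of Aldoc (197 in knockout, 128 in wild type), Hk3 and Hk2 lie farthest apart.

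The hexokinases, which trap glucose in the cell by phosphorylating it, included the second highest and the lowest of the 42 differences. Hk3, the isoform typical of myeloid cells, had an intensity of 2896 in knockout cells and 2277 in wild-type cells, a difference of 0.34. Its other probe set also gave a higher value in knockout, at 0.24. Hk2, the isoform induced by growth signals and low oxygen, had 1094 in knockout cells and 1349 in wild-type cells, a difference of -0.299 that just missed 0.3 in size. Hk2 had 1 probe set, so no other could agree or disagree. Hk1, the isoform found in most tissues, had 1289 in knockout cells and 1360 in wild-type cells (-0.08), and its other probe set stood at -0.05. Hk3 was thus higher in knockout cells, and Hk2 and Hk1 were lower.

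Upper glycolysis comprised the phosphofructokinases, which commit sugar to glycolysis, and the enzymes that make and break their activator. Of its 5 measured members, 3 were higher and 2 lower in knockout cells, with a median of 0.04. Pfkfb3, a kinase that makes the activator, had 327 in knockout cells and 272 in wild-type cells, a difference of 0.25 that its other probe set shared (0.23). Pfkfb4, a related enzyme, had 802 in knockout cells and 777 in wild-type cells (0.04). The phosphofructokinase subunits were close between genotypes. Pfkl, the liver-type subunit, had 971 in knockout cells and 995 in wild-type cells (-0.03), with its 3 expressed probe sets between -0.06 and -0.03. Pfkm, the muscle-type subunit, had 197 in knockout cells and 183 in wild-type cells (0.10). Pfkp, the platelet-type subunit, had 957 in knockout cells and 1037 in wild-type cells (-0.11), but its other expressed probe set gave 0.17, so its sign was not settled within these arrays.

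The steps from aldolase to pyruvate kinase, called lower glycolysis here, were the group with the most uniform direction. All 6 measured members were higher in knockout cells, with a median of 0.12, and 14 of their 14 expressed probe sets stood above 0. Only the probe set used for Pgk1 (0.07) and that of Pkm (0.10) had no name suffix that marks possibly shared sequence. Over all members 55 of 87 expressed probe sets stood above 0, and over all genes 53.6% did. Probe sets of a gene read the same messenger RNA, so these counts are not independent.

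Aldoc, the aldolase isoform first known from brain, had the highest difference of the 42 members. Its intensity was 197 in knockout cells and 128 in wild-type cells, a difference of 0.57, and its other probe set, not expressed, had 26.3 in knockout cells and 18.7 in wild-type cells (0.29). Aldoa, the aldolase of muscle and most other cells, had 8402 in knockout cells and 7888 in wild-type cells (0.09), with its 5 probe sets between 0.01 and 0.22. The large difference of Aldoc was therefore not seen in Aldoa.

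Pgam1, the phosphoglycerate mutase, had 5014 in knockout cells and 4238 in wild-type cells (0.24) on its only probe set. Tpi1, which interconverts the triose phosphates, had 6307 in knockout cells and 5707 in wild-type cells (0.14), and its 3 probe sets ran from 0.12 to 0.24. Pkm, the pyruvate kinase that makes ATP in the last step, had 7160 in knockout cells and 6702 in wild-type cells (0.10). Pgk1, the phosphoglycerate kinase, had 9193 in knockout cells and 8763 in wild-type cells (0.07), with probe sets from 0.02 to 0.07. Aldoa, Pkm and Pgk1 differed by less than the SD between probe sets. Ldha, the lactate dehydrogenase subunit that favours lactate formation, had 7079 in knockout cells and 6736 in wild-type cells (0.07). Ldhb, the subunit that favours pyruvate, had 179 in knockout cells and 183 in wild-type cells (-0.03), while its other 3 probe sets lay above 0, up to 0.11.

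**Figure D2:**
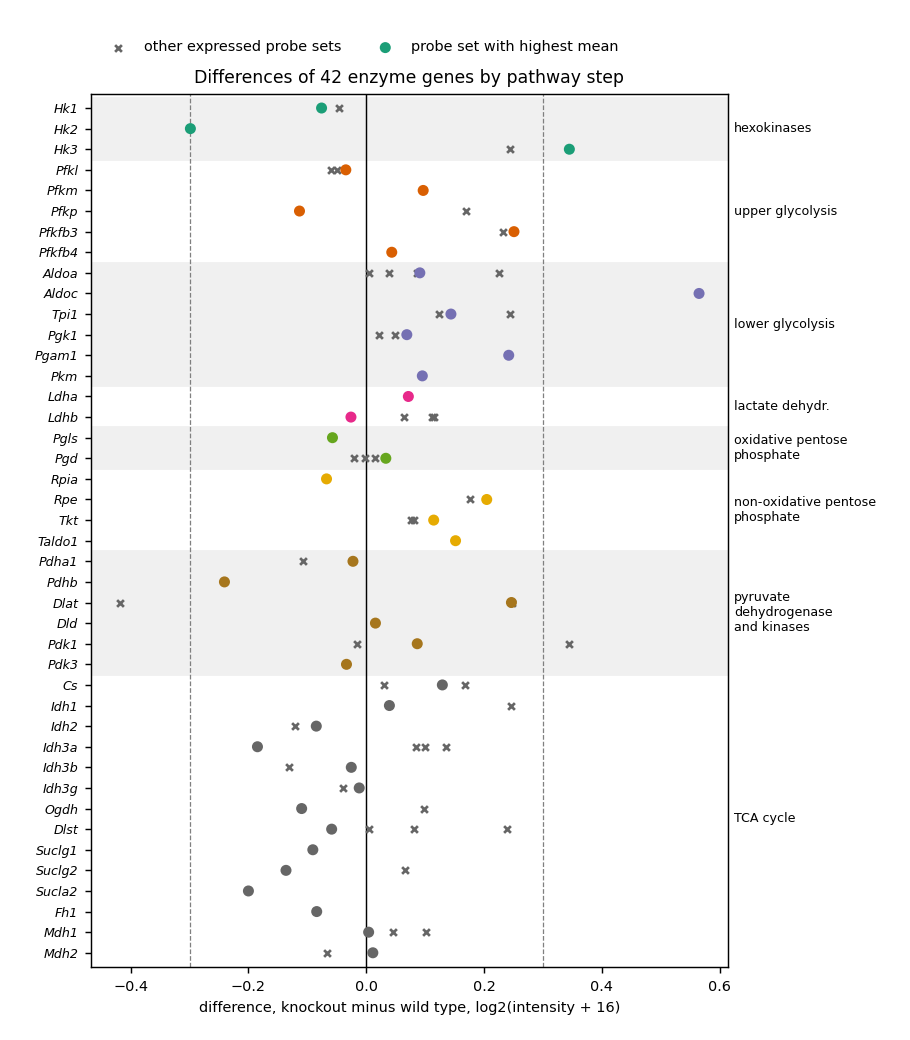
Difference of each measured enzyme gene, knockout minus wild type on log2(intensity + 16), for the probe set used (filled circles, coloured by step) and the other expressed probe sets of the gene (crosses), with dashed lines at 0.3 on either side of 0. All 14 probe sets of lower glycolysis lie right of 0, whereas the probe sets of TCA cycle genes lie on both sides.

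The pentose phosphate enzymes were split between the oxidative steps, which make NADPH, and the non-oxidative steps, which interconvert sugars. Of the 4 non-oxidative members, 3 were higher in knockout cells, with a median of 0.13 (0.08 without probe sets whose name suffix marks possibly shared sequence) and 6 of 7 expressed probe sets above 0. Rpe, the ribulose phosphate epimerase, had 1768 in knockout cells and 1532 in wild-type cells (0.20), with 0.18 on its other expressed probe set. Taldo1, the transaldolase, had 5583 in knockout cells and 5025 in wild-type cells (0.15). Tkt, the transketolase, had 14915 in knockout cells and 13776 in wild-type cells (0.11), with probe sets from 0.08 to 0.11. Rpia, the ribose phosphate isomerase, was the exception, at 1621 in knockout cells and 1699 in wild-type cells (-0.07).

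The measured oxidative enzymes were near 0. Pgd, which makes NADPH from phosphogluconate, had 9888 in knockout cells and 9662 in wild-type cells (0.03), and its 4 probe sets ran from -0.02 to 0.03. Pgls, the lactonase before it, had 1321 in knockout cells and 1375 in wild-type cells (-0.06). The entry enzyme of the pathway, encoded by G6pdx, was among the genes not measured by the rule.

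The pyruvate dehydrogenase complex, which carries pyruvate carbon into mitochondrial acetyl groups, showed subunits of opposite sign. Pdhb, the beta subunit of its first enzyme, had 1839 in knockout cells and 2175 in wild-type cells (-0.24), the second lowest difference of the 42 members. Pdha1, the alpha subunit of the same enzyme, had 1823 in knockout cells and 1852 in wild-type cells (-0.02), and its other probe set stood at -0.11. Dlat, the acetyltransferase subunit, had 642 in knockout cells and 539 in wild-type cells (0.25). Another of its probe sets also gave 0.25, but the remaining probe set had 116 in knockout cells and 161 in wild-type cells (-0.42). The probe sets of Dlat therefore gave it no settled sign. Dld, the dehydrogenase subunit shared with other complexes, had 1063 in knockout cells and 1051 in wild-type cells (0.02). Of the kinases that switch the complex off, Pdk1 had 624 in knockout cells and 587 in wild-type cells (0.09), with probe sets from -0.02 to 0.34. Pdk3, another of these kinases, had 900 in knockout cells and 921 in wild-type cells (-0.03). The median of these 6 genes was -0.0034.

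The TCA cycle group, with the cytosolic enzymes Idh1 and Mdh1, leaned the other way by small amounts. Of 14 members 10 were lower in knockout cells and 4 higher, with a median of -0.07 and a range from -0.20 to 0.13. The lean was not seen when all expressed probe sets counted alike: 17 of the 31 of these genes stood above 0, and 5 genes had probe sets of both signs. For Idh3a, Ogdh, Dlst and Suclg2 the opposing probe sets were dim, with 37.8 to 279 in knockout cells. The probe sets used for these genes had 542 to 2328 there. With equal weight for each probe set, then, the group had no common direction.

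Sucla2, the ATP-forming beta subunit of succinyl-CoA ligase, had 1198 in knockout cells and 1378 in wild-type cells (-0.20) on its only expressed probe set. Suclg2, the GTP-forming beta subunit, had 747 in knockout cells and 822 in wild-type cells (-0.14), with 0.07 on its other probe set. Suclg1, the alpha subunit common to both forms, had 1746 in knockout cells and 1860 in wild-type cells (-0.09). All 3 subunits of this enzyme were thus lower on the probe sets used.

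The NAD-dependent isocitrate dehydrogenase has 3 kinds of subunit. Idh3a, its catalytic subunit, had 2328 in knockout cells and 2648 in wild-type cells (-0.18), but its other 3 expressed probe sets were higher in knockout, at 0.08 to 0.14. Idh3b had 1199 in knockout cells and 1220 in wild-type cells (-0.03). Idh3g had 2117 in knockout cells and 2135 in wild-type cells (-0.01). Both of these are the other subunits of that enzyme, and their remaining expressed probe sets were also below 0, at -0.13 and -0.04. Of the NADP-dependent forms, the mitochondrial Idh2 had 1045 in knockout cells and 1109 in wild-type cells (-0.08). The cytosolic Idh1 had 3073 in knockout cells and 2990 in wild-type cells (0.04), with 0.25 on its other probe set.

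Cs, the citrate synthase that starts the cycle, was the highest of the group, with 2256 in knockout cells and 2061 in wild-type cells (0.13) and all 3 probe sets above 0. Ogdh, the first subunit of the oxoglutarate dehydrogenase complex, had 542 in knockout cells and 586 in wild-type cells (-0.11), with 0.10 on its other probe set. Dlst, its succinyltransferase subunit, had 1055 in knockout cells and 1099 in wild-type cells (-0.06), whereas its other 3 probe sets gave 0.01 to 0.24. Neither subunit therefore had a settled sign. Fh1, the fumarase, had 1963 in knockout cells and 2082 in wild-type cells (-0.08). On the probe sets used, the malate dehydrogenases were closest of all to 0. Mdh1, the cytosolic form, had 2721 in knockout cells and 2713 in wild-type cells (0.0041), with 0.04 and 0.10 on its other expressed probe sets. Mdh2, the mitochondrial form, had 5734 in knockout cells and 5690 in wild-type cells (0.01), with -0.07 on its other probe set.

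**Figure D3:**
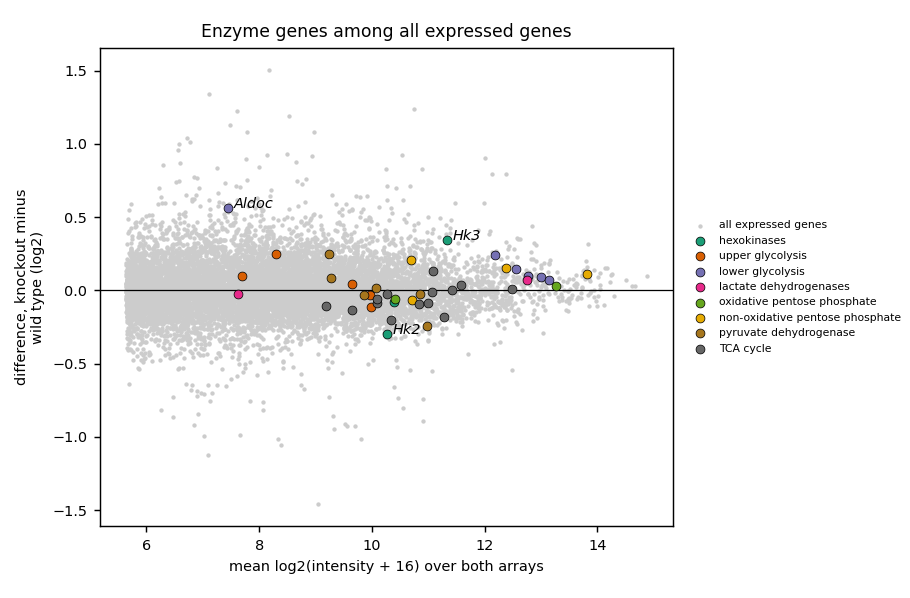
Difference, knockout minus wild type on log2(intensity + 16), against mean log2(intensity + 16) over both arrays, for all 11006 expressed genes (grey) and the 42 enzyme genes (coloured by step). Aldoc at 0.57, Hk3 at 0.34 and Hk2 at -0.299 mark the edges of the enzyme genes, and the grey points reach farther on both sides.

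Bright signals were set apart because 20 of the 42 members fell among the brightest 10% of expressed genes. These 1101 genes had a median difference of 0.0009, and 50.4% of them stood above 0. Of the 20 members among them, 14 were higher in knockout cells, with a median of 0.05. The 8 TCA members among them were 4 higher and 4 lower, and of the other 12 members 10 were higher. Of the 22 dimmer members 8 were higher, with a median of -0.03. Saturation of the brightest signals was not tested.

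Agreement between probe sets was looked at for the 26 members that had more than 1 expressed probe set. The sign was shared for 16 of them, a share of 61.5%, against 51.9% of the 5017 such genes on the arrays. Of the 16, 10 were higher in knockout cells and 6 were lower. The 10 others, with probe sets of both signs, were Pfkp, Ldhb, Pgd, Dlat, Pdk1, Idh3a, Ogdh, Dlst, Suclg2 and Mdh2. The remaining 16 members had 1 expressed probe set, which included Hk2, Aldoc, Pgam1, Taldo1, Pdhb and Sucla2.

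The step medians ran from -0.08 for the hexokinases and -0.07 for the TCA cycle to 0.12 for lower glycolysis and 0.13 for the non-oxidative pentose phosphate steps. Lower glycolysis and the TCA cycle were set against each other after the values were seen, although the hexokinases lay slightly lower and the non-oxidative steps slightly higher. The median of lower glycolysis minus that of the TCA cycle was 0.19, and it was lowest, at 0.14, without probe sets of such shared suffixes. In that setting only Pgk1 and Pkm remained of lower glycolysis, so the 0.14 does not speak for the whole group. Median centring and the shift by poly-A controls move all genes alike and could not change the difference of these medians. The difference between the steps was not tested, since no array was repeated. Shifting all differences by the poly-A controls raised the median of all expressed genes by 0.17 and put the median of each step above 0, with the TCA cycle at 0.10 and lower glycolysis at 0.29. The direction of the TCA cycle and of the hexokinases (0.10 after the shift) is thus relative to the deposited scale.

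**Figure D4:**
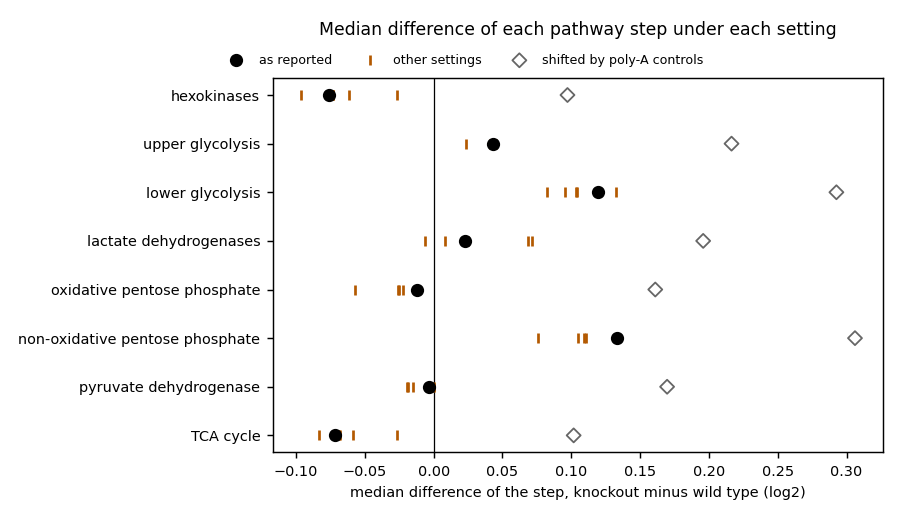
Median difference of each pathway step, knockout minus wild type on the log2 scale, as reported (filled circles), under the other settings (vertical ticks) and after a shift by the poly-A spike-in controls (open diamonds). Lower glycolysis stays between 0.08 and 0.13 and the TCA cycle between -0.08 and -0.03 in the settings without that shift. The 0.08 rests on Pgk1 and Pkm alone, left when probe sets of possibly shared sequence are omitted.

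Other genes of the same pathways gave a similar picture. Of the 48 listed, 41 were measured and 27 expressed, of which 15 were higher in knockout cells and 12 lower, with a median of 0.03. At 0.3 or more, 2 were higher and 0 lower, beside 5.23% and 2.88% of all expressed genes. Aco1, the cytosolic aconitase that also binds iron-responsive elements of messenger RNAs, had 826 in knockout cells and 602 in wild-type cells (0.45), with 0.35 on its other expressed probe set and 0.26 as the mean over all its probe sets. Got1, the cytosolic aspartate aminotransferase of the malate-aspartate shuttle, had 559 in knockout cells and 450 in wild-type cells (0.30), and fell short of 0.3 under quantile normalization (0.27). The lowest was Pdp1, a phosphatase that reactivates pyruvate dehydrogenase, with 79.7 in knockout cells and 97.6 in wild-type cells (-0.25).

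Hypoxia-inducible genes outside these pathways were read beside the enzymes, because many glycolytic enzymes, Hk2 and Pdk1 among them, are known targets of the hypoxia-inducible factors. The list was drawn up with the low value of Ankrd37 already known, so it gives no independent direction. Of 20 genes 19 were measured and 17 expressed, with 7 higher and 10 lower in knockout cells and a median of -0.11. At 0.3 or more, 2 were higher and 4 were lower, beside 5.23% and 2.88% of all expressed genes. The median ran from -0.14 to -0.03 under 9 settings and turned to 0.06 after the shift by poly-A controls.

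The lower genes of that list included the glucose transporter. Slc2a1, the transporter GLUT1 that brings glucose to hexokinase, had 781 in knockout cells and 969 in wild-type cells (-0.31), with its 3 expressed probe sets between -0.53 and -0.31. Egln3, a prolyl hydroxylase that marks hypoxia-inducible factors for breakdown, had 864 in knockout cells and 1206 in wild-type cells (-0.47), with -0.53 on its other probe set. Slc2a1 and Egln3 were lower on each of their expressed probe sets, as Hk2 was on its only one. Ankrd37, an ankyrin repeat protein, had 49.4 in knockout cells and 103 in wild-type cells (-0.86). Ak4, a mitochondrial adenylate kinase, had 230 in knockout cells and 306 in wild-type cells (-0.39), but its 4 probe sets reached 0.04. The higher genes were Ndrg1, a stress-responsive protein, and Epas1, a hypoxia-inducible factor subunit. Ndrg1 had 799 in knockout cells and 617 in wild-type cells (0.36), with its 5 probe sets from 0.36 to 0.74. Epas1 had 42.3 in knockout cells and 28.4 in wild-type cells (0.39), close to the limit for an expressed gene. Hif1a, the main oxygen-regulated subunit of myeloid cells, had 2746 in knockout cells and 2446 in wild-type cells (0.17), with probe sets from -0.11 to 0.23. Genes of the hypoxia-inducible list thus stood on both sides of 0. Of the enzymes named above as targets, Hk2 was below 0 (-0.299), and Pdk1 (0.09) differed by less than the SD between probe sets (0.14).

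**Figure D5:**
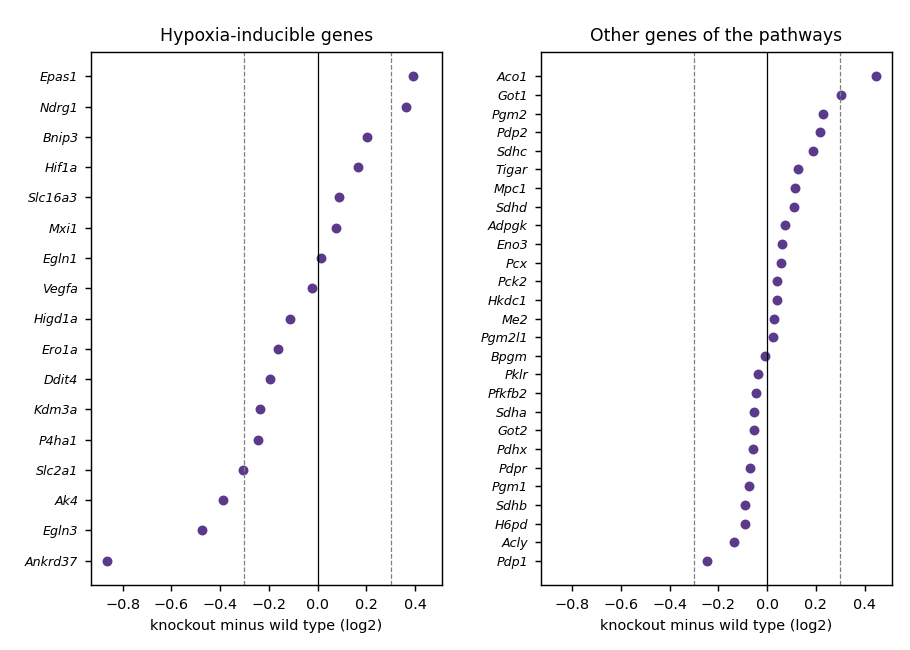
Difference, knockout minus wild type on log2(intensity + 16), of the expressed genes in the hypoxia-inducible list (left, 17 genes) and in the list of other pathway genes (right, 27 genes), each point a gene, with dashed lines at 0.3 on either side of 0. In the hypoxia-inducible list 4 genes lie left of the lower line and 2 right of the upper line, against 0 and 2 among the other pathway genes.

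The upstream regions of the members at the ends of the range are printed because hypoxia-inducible factors are known to bind a short core, ACGTG or GCGTG. Each is the stretch of 250 bases before the most upstream RefSeq start of the gene in GRCm38.p6, 5′ to 3′ on the strand of the gene, with each match to ACGTG or GCGTG, or to their reverse complements CACGT and CACGC, in capitals. Aldoc, at chr11:78322823-78323072 on the plus strand, had 1 match. Hk3, at chr13:55021386-55021635 on the minus strand, had 1 match. Hk2, at chr6:82774455-82774704 on the minus strand, had 2 matches.
Aldoc: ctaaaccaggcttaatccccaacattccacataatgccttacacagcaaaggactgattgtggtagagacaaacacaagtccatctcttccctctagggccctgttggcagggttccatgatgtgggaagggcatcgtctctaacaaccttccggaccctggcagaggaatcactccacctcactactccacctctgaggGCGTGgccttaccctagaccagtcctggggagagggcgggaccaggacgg
Hk3: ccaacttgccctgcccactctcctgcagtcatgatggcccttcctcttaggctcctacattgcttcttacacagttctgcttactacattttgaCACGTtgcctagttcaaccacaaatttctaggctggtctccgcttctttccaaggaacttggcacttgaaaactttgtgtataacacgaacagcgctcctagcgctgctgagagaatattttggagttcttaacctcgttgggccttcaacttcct
Hk2: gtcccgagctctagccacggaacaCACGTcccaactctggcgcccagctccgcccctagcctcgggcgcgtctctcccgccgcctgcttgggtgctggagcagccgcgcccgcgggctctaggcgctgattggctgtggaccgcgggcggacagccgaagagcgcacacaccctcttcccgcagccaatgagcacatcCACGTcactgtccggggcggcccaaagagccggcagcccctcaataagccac

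The core was thus present in the windows of the highest and the lowest members alike. Of 41 measured members with a window, 28 held at least 1 match (68.3%), against 56.5% of 8980 expressed genes and 38.6% of all 27025 genes with a window. Among the members higher in knockout cells 14 of 22 held it (63.6%), and among those lower 14 of 19 (73.7%). In the hypoxia-inducible list 15 of 17 did (88.2%). The palindrome CACGTG holds 2 overlapping matches and counts once per gene here. A match of these letters is a description of the window and not a bound site.

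Markers of other cell types that the cultures could hold also differed between the arrays. Summed over expressed markers, mast cell and basophil genes had 4684 in knockout cells and 6710 in wild-type cells, with 10 of 10 lower. Megakaryocyte and platelet genes had 1362 in knockout cells and 2118 in wild-type cells, with 7 of 8 lower. Their median differences were -0.53 and -0.47. Itgb3 was the exception among the megakaryocyte and platelet genes, with 205 in knockout cells and 71.1 in wild-type cells (1.34). Eosinophil genes had 968 in knockout cells and 1192 in wild-type cells, with 3 of 4 lower and a median difference of -0.53. Siglecf was the exception, with 370 in knockout cells and 187 in wild-type cells (0.92). The measured Ccr3 and Il5ra were not expressed. With the expression filter raised to the 75th percentile, the eosinophil median turned to 0.10. Monocyte and macrophage genes had 11458 in knockout cells and 9346 in wild-type cells, with 9 of 11 higher and a median difference of 0.29. Mrc1 and C1qa were not expressed. At 0.3 or more, 5 of the monocyte and macrophage genes were higher and 1 was lower, beside 5.23% and 2.88% of all expressed genes. The highest was Apoe, with 473 in knockout cells and 156 in wild-type cells (1.51). The lowest was Cx3cr1, with 131 in knockout cells and 207 in wild-type cells (-0.60). Neutrophil genes themselves had 150903 in knockout cells and 143304 in wild-type cells, with 10 of 11 higher and a median difference of 0.15. Camp was the exception, with 7606 in knockout cells and 9325 in wild-type cells (-0.29). Erythroid genes were close, at 130 in knockout cells and 124 in wild-type cells, with 1 of 2 higher. Beside these marker counts, 49.7% of all expressed genes stood above 0. The part of these cells in the enzyme differences was not tested.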

How the data were processed

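The series holds 2 arrays of total RNA from cultured neutrophils, 1 per genotype, and the genotype label set the groups. Per the labels' protocols, Trizol was used for RNA and the Affymetrix 3' IVT Express kit for biotinylated cRNA, so signals come mainly from 3' ends. The authors deposited linear intensities, summarized to a value per probe set. Their background correction, summarization and normalization are not stated in the sources used here. Column medians were near-equal (33.8 in knockout, 34.2 in wild type), and the values were used as deposited. If joint normalization was applied, a difference in total RNA between the cultures would be hidden.

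Of 45101 probe sets, 64 array controls were set aside and 34945 were named for 1 gene. Older symbols were replaced by those of RefSeq (GRCm38.p6), matched on Entrez identifier. The pseudocount of 16 shrinks differences of dim genes. A gene was called expressed at a mean of 5.64 or more on the log2(intensity + 16) scale. A difference of 0.3 was the main size rule, and nothing was tested for significance.

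The members and lists were chosen with earlier results of these data known. All 45 members could be named, and of the other lists the expressed genes at 0.3 or more and the largest difference in each direction. Hif1a, Mpo, Elane, Ltf and S100a9 were named outside that rule, after their values were seen, as were listed markers that were not expressed. The alternatives changed the pseudocount (1 or 64) and the scaling (median centring, quantile normalization, loess with span 0.3, or a shift by poly-A controls). They also changed the expression filter (none, or the 75th percentile). For the probe sets, their mean per gene was taken, or only those without the suffixes _s_at, _x_at and _a_at. These suffixes mark sequence possibly shared between transcripts, of the same gene or of other genes. Sizes of 0.2, 0.5 and 1 and the mean over members were also tried. Sequences are RefSeq's. Simulated data served as a check of the computation, and they do not show that differences of the size reported here are dependable. Computation used Python 3.11.15, pandas 2.3.3 and statsmodels 0.14.6.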

Additional observations from a re-analysis of the deposited data

How the results depend on the processing

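No difference has a replicate check, so no sign is dependable here at any size. The SD between probe sets (0.14) is a spread within these arrays and gives no cut for a dependable sign. No paired analysis was possible because each genotype has 1 array. The shift by poly-A controls moved the median of all expressed genes by 0.17, the members' median to 0.18, and the number of members above 0 to 38 of 42, with 9 at 0.3 or more. It gave step medians of 0.10 for hexokinases, 0.22 for upper glycolysis, 0.29 for lower glycolysis, 0.20 for lactate dehydrogenases, 0.16 for oxidative and 0.31 for non-oxidative pentose phosphate, 0.17 for pyruvate dehydrogenase with its kinases and 0.10 for the TCA cycle. Relative to the shifted median of all genes these are unchanged.

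The members' median was otherwise between -0.01 and 0.02, with quantile normalization, loess and the omission of shared suffix classes giving values below 0. Without shared suffix classes 28 members remained measured and expressed, 13 of them above 0 and 0 higher by 0.3, since Hk3 then stood at 0.24 and Aldoc had no expressed probe set. With the mean over probe sets 1 member was higher by 0.3, Aldoc at 0.43, and Hk3 stood at 0.29. A filter at the 75th percentile also left 1, Hk3. A pseudocount of 1 and quantile normalization each gave 1 member lower by 0.3, Hk2. A size of 0.2 gave 6 higher and 2 lower members, 0.5 gave 1 and 0, and 1 gave 0 and 0. Of single members, the sign changed for Ldhb, Idh3a, Dlst and Mdh2 with the mean over probe sets, for Pdk1 and Idh3a without shared suffix classes, for Mdh1 and Mdh2 under quantile normalization and for Mdh2 under loess. Without shared suffix classes the median of the hexokinases was -0.03, that of the non-oxidative pentose phosphate steps 0.08 and that of the oxidative ones -0.06, and the mean over probe sets gave the TCA cycle -0.03. The median of lactate dehydrogenases turned to -0.01 under quantile normalization and that of pyruvate dehydrogenase to 0.0001 under loess. The mean over probe sets, unexpressed ones included, also shrank Dlat to 0.03, Rpe to 0.13, Pdhb to -0.13, Sucla2 and Suclg2 to -0.04, Pfkp to -0.03, Ogdh to -0.01 and Ak4 to -0.13. Got1 fell short of 0.3 under quantile normalization (0.27). Slc2a1 stood at -0.53 without shared suffix classes, and a pseudocount of 64 gave Epas1 0.20 and Ankrd37 -0.56.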
